A study of Homo sapiens with 10 samples.

Results

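Zinc transporters and metallothioneins were examined in mRNA sequencing libraries of MCF10A, a human breast epithelial cell line that does not form tumours. The members are the genes whose symbol is SLC39A or SLC30A followed by a number, MT1 followed by a letter, MT2A or MTF1, and which have at least 1 transcript annotated as protein_coding. The rule found 34 of the 60168 genes in the deposited data, namely 14 SLC39A genes, 10 SLC30A genes, 9 metallothioneins and MTF1. MT1L was left out because it has no such transcript. The study asked which enhancers and genes carry the effects of activated YAP, a transcription co-factor, and it names SLC39A1 as the target of an enhancer.

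MCF10A-YAP5SA cells, labelled MCF10A-YAP, carried a vector for a YAP variant that the study calls constitutively active. As background, YAP5SA is known as a YAP whose inhibitory phosphorylation sites are changed from serine to alanine. MCF10A-TRAM2 cells carried a vector for TRAM2, a membrane protein of the protein translocation channel of the endoplasmic reticulum. Control cells carried an empty vector. The study's methods name a backbone with a blasticidin marker for YAP5SA and one with a puromycin marker for TRAM2. They do not name that of the empty vector. Effects of backbone or drug therefore cannot be told apart from those of the gene carried. All 3 groups are the same line, were selected with antibiotic after transduction, and grew until they were subconfluent in medium with horse serum, EGF, insulin and hydrocortisone, a glucocorticoid. They are therefore transduced populations of a single cell line, and no clone, zinc treatment or protein was analysed here. The labels name 2 MCF10A-YAP5SA, 4 MCF10A-TRAM2 and 4 control libraries, whereas the design text of the submitters gives 3 biological replicates per condition. Over genes with whole counts in every library, no difference larger than sampling noise was found between control libraries A and C (chi-square per degree of freedom 1) or B and D (0.999), and each pair was counted as 1 sample. Over all genes, whose estimated counts need not be whole, both pairs did differ beyond it (1.23 and 1.22), by less than the other pairs of control libraries (1.42 to 1.49). Thus n is 2 for MCF10A-YAP5SA, 4 for MCF10A-TRAM2 and 2 for control. Over genes whole in every library, the chi-square per degree of freedom was 1.21 between the MCF10A-YAP5SA libraries and 2.07 to 6.12 between those of MCF10A-TRAM2. The test shares its estimate of the spread among the 3 groups, so the MCF10A-TRAM2 libraries enter every comparison. The sources do not say which libraries are the biological replicates, so p-values measure only the spread between libraries, which may be technical.

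Zinc is a structural and catalytic part of a large share of human proteins, and cells keep free zinc very low. SLC39A proteins (ZIP transporters) move zinc into the cytosol from outside or from organelles, and SLC30A proteins (ZnT transporters) move it out of the cytosol, across the plasma membrane or into organelles. Metallothioneins are small cysteine-rich proteins that bind zinc, copper and cadmium, and MTF1 is the transcription factor that senses zinc and switches on metallothionein genes and SLC30A1 through metal response elements in their promoters. Metallothionein genes are also known to respond to glucocorticoids.

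The 4 metallothioneins with the most reads are printed first, because their likeness bears on every value given for them. All of the metallothionein members lie in 1 cluster on chromosome 16, from MT2A (chr16:56642496-56643409, forward strand) to MT1X (chr16:56716382-56718108, forward strand) in the GENCODE annotation mapped to GRCh37. MT1E (chr16:56659387-56661024) and MT1F (chr16:56691643-56694610) lie between them on the same strand. The coding sequences below were joined from 3 coding exons each, without the stop codon, and are 183 bases long. Capitals mark the bases that differ from MT2A.
MT2A: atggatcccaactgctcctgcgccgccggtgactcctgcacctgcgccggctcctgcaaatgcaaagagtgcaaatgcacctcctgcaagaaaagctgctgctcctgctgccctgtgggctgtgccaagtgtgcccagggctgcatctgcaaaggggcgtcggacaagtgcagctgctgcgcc
MT1E: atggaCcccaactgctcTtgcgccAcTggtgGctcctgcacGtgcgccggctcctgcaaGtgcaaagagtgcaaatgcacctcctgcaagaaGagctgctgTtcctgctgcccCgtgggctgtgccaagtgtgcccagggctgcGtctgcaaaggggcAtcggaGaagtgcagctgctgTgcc
MT1F: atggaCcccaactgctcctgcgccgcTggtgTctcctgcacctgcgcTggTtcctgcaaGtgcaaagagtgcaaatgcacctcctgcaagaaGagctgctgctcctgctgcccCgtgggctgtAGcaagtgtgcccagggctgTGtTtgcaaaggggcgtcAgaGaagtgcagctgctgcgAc
MT1X: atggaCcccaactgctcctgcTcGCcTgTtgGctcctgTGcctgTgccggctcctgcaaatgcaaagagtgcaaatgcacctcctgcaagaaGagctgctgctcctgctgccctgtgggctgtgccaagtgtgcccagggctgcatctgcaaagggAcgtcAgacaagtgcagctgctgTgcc
MT1E differed from MT2A at 14 bases (92.3% identity), MT1F at 16 (91.3%) and MT1X at 14 (92.3%), and each of the 4 sequences holds 20 codons for cysteine (TGC or TGT). Of the stretches of 31 bases in the MT2A-201 transcript, 75.2% occur in no transcript of another metallothionein gene or pseudogene in that annotation, against 84.7% for MT1E-201, 86.1% for MT1F-201 and 77% for MT1X-201. Reads from the shared stretches were divided among the genes by Salmon, so the level of a single metallothionein is less certain than their sum.

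Promoter sequence was available from RefSeq (GRCh38.p14) for 26 of the 34 members, as 35 windows. Members without a window included MT1E, MT1F and SLC39A4, which were called in MCF10A-YAP5SA against control. The 250 bases before the start of MT2A, MT1X and SLC30A1 are shown because all 3 genes are known MTF1 targets, and in MCF10A-YAP5SA against control MT2A was called higher, SLC30A1 lower and MT1X not at all. Capitals mark the core of the metal response element, TGCACNC or TGCGCNC, searched on both strands, so that a match on the other strand reads GNGTGCA or GNGCGCA. No matches overlapped in these windows.
MT2A, chr16:56608334-56608583, forward strand: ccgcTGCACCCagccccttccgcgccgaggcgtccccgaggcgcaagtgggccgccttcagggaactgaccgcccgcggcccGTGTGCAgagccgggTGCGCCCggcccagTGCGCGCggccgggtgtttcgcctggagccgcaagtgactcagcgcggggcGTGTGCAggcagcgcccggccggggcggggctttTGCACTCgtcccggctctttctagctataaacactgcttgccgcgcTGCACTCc
MT1X, chr16:56682220-56682469, forward strand: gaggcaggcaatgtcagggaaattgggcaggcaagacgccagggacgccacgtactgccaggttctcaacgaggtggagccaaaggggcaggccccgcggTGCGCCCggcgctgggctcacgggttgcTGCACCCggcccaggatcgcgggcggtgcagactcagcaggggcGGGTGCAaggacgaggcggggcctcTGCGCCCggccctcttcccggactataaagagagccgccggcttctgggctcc
SLC30A1, chr1:211579162-211579411, reverse strand: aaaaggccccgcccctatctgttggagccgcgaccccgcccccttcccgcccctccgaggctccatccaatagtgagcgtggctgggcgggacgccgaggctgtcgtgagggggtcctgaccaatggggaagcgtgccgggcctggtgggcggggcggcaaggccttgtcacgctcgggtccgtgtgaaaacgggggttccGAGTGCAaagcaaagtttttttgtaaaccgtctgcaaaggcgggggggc
The window of MT2A held 7 matches, that of MT1X held 4 and that of SLC30A1 held 1. Of all 35116 promoter windows of that length, 24.8% held at least 1 match, 0.37% held 4 or more and 0.0313% held 7 or more. At least 1 match was present in 15 of the 35 windows of members (42.9%). The windows with 3 or more matches were those of MT1H, MT2A, MT1X, MT1B and SLC30A2. The window of MT1H, which had too few counts to be tested, held the most (8). The windows of MTF1 and of SLC39A10 held none. A match describes the letters only and is not a binding site. The 3 windows printed were picked with the calls known, so their match counts cannot show whether matches and calls go together. This was not tested.

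Depth was 8489854 to 16314438 estimated counts per library, and 18511936 and 21542413 in the merged controls. YAP1 stood at 337 and 342 CPM in MCF10A-YAP5SA, 181 to 196 CPM in MCF10A-TRAM2 and 187 CPM in both controls, where reads of the vector and of the cell's own gene cannot be told apart. TRAM2 stood at 250 to 611 CPM in MCF10A-TRAM2 and at 28.4 and 28.9 CPM in control, and its log2 fold change of 3.90 did not pass edgeR's quasi-likelihood test (adjusted p = 0.0725), while it stood at 242 and 247 CPM in MCF10A-YAP5SA (3.10, adjusted p = 0.00311 from the same test). Of 7 epithelial markers, 4 were lower in MCF10A-YAP5SA than in control (CDH1, TP63, EPCAM and KRT5) and 2 were higher (KRT17 and KRT18), where 14.1% of all genes tested were called lower and 15.3% higher. The 7 together summed to 2204 to 2290 CPM in MCF10A-YAP5SA, 2789 to 3146 CPM in MCF10A-TRAM2 and 3012 to 3046 CPM in control. KRT18 alone stood at 744 and 776 CPM in MCF10A-YAP5SA and at 501 and 505 CPM in control, against the direction of the sum. Of 6 fibroblast markers 1 was tested, COL1A1, and the list summed to at most 1.68 CPM in MCF10A-YAP5SA, 3.87 CPM in MCF10A-TRAM2 and 4.26 CPM in control. The 5 leukocyte markers summed to 0.387 to 0.42 CPM in MCF10A-YAP5SA, 1.86 to 2.90 CPM in MCF10A-TRAM2 and 2.33 to 2.69 CPM in control, with CD3E at 0 throughout and CD14 lower in MCF10A-YAP5SA than in control (log2 fold change -3.63). The 4 endothelial markers summed to 2.01 to 2.19 CPM in MCF10A-YAP5SA, 11.99 to 17.4 CPM in MCF10A-TRAM2 and 9.64 to 10.4 CPM in control, nearly all of it PECAM1 and KDR, with VWF at 0 throughout. All groups are a single cultured line, so these levels do not show that other cell types were present. Whether these markers relate to the zinc genes was not tested.

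In MCF10A-YAP5SA cells MT2A was 1.98 times and MT1E 3.03 times as high as in control cells, whereas MT1F fell by 2.23, the importer SLC39A8 by 1.13 and the exporter SLC30A1 by 0.69 on the log2 scale. The importers SLC39A13 (log2 fold change 1.03) and SLC39A10 (0.59) and the vesicle transporter SLC30A4 (0.96) were higher, and the SLC39A4 locus was lower (-0.60). SLC39A1 did not pass the test. The study named it a potential target because its mRNA fell in MCF10A-YAP5SA cells when the enhancer was cut, against a non-targeting guide. The study also drew on chromatin structure and tumour expression data. The samples used here do not include cells with a cut enhancer. MCF10A-TRAM2 cells differed from control in no member that passed the test. In these bulk samples, a change in the share of cells that express a gene and a change in the level per cell cannot be told apart.

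Of the 34 members, 23 had enough counts to be tested. A call required that the adjusted p be below 0.05 and that the log2 fold change exceed 0.5 in size, and CPM denotes counts scaled to the library's normalised total. In MCF10A-YAP5SA against control, 9 of the 23 (39.1%) were called, 5 higher and 4 lower, where 29.4% of all 15768 genes tested were called, 15.3% higher and 14.1% lower. The members' median log2 fold change was 0.08, against -0.01 for all genes, and their median absolute value was 0.37, against 0.35. In MCF10A-YAP5SA against MCF10A-TRAM2, 8 of the 23 (34.8%) were called, 5 higher and 3 lower, against 29.4% of all genes (14.9% higher and 14.6% lower). In MCF10A-TRAM2 against control, edgeR's quasi-likelihood test and DESeq2 each called 0 of the 23. In edgeR 0.0571% of all genes were called (0.0317% higher and 0.0254% lower). An unadjusted p under 0.05 was found for 5 of the 23 in edgeR. By the same test, a gene with an unadjusted p of 0.0497 (SRXN1) ranked 1985 of all 15768 genes. As both comparisons with control use the same control samples, the values of each are given side by side. Libraries A and B of all groups, the only ones of MCF10A-YAP5SA, carry one run number and libraries C and D another. Among A and B alone 5 members were called higher and 4 lower in MCF10A-YAP5SA against control, where 15.5% of the 15111 genes tested were called higher and 13.6% lower. The 23 tested genes had passed a filter on low counts, so these figures do not describe the 11 other members.

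**Figure D1:**
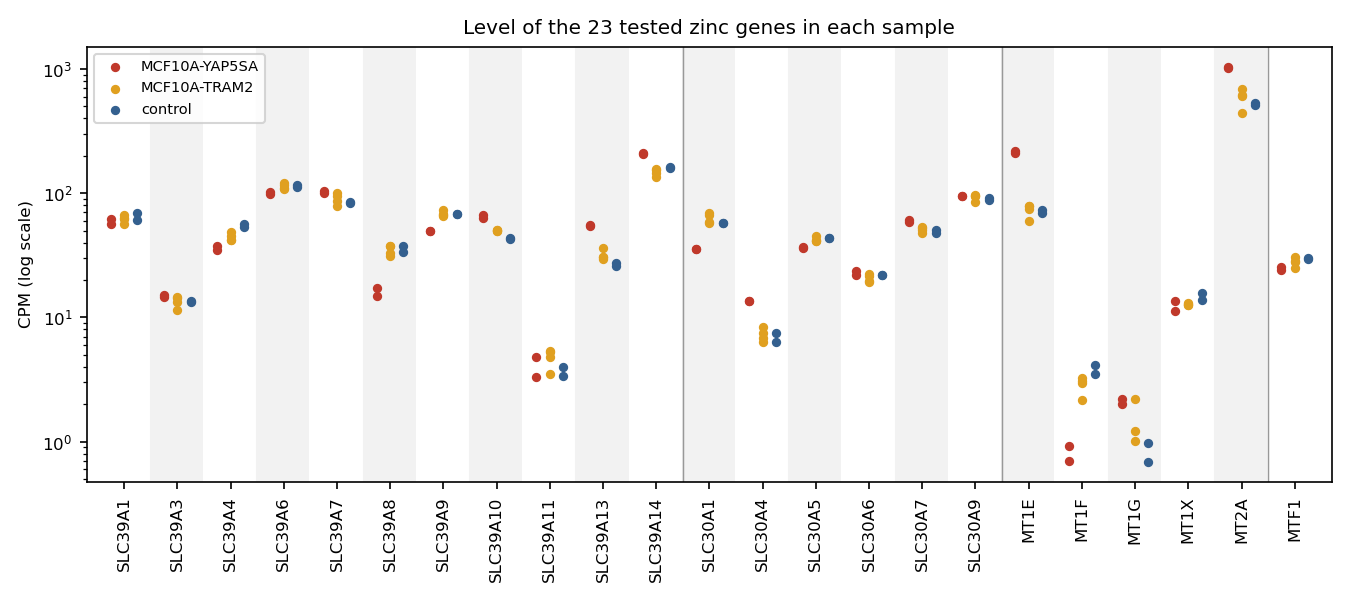
Level of each of the 23 tested members in CPM on a log axis, 1 point per sample (2 MCF10A-YAP5SA, 4 MCF10A-TRAM2 and 2 control), with grey lines between SLC39A, SLC30A, metallothionein genes and MTF1. MT2A stood highest in all 3 groups, and MCF10A-TRAM2 library A, which had no count of MT1G, is not drawn for that gene.

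**Figure D2:**
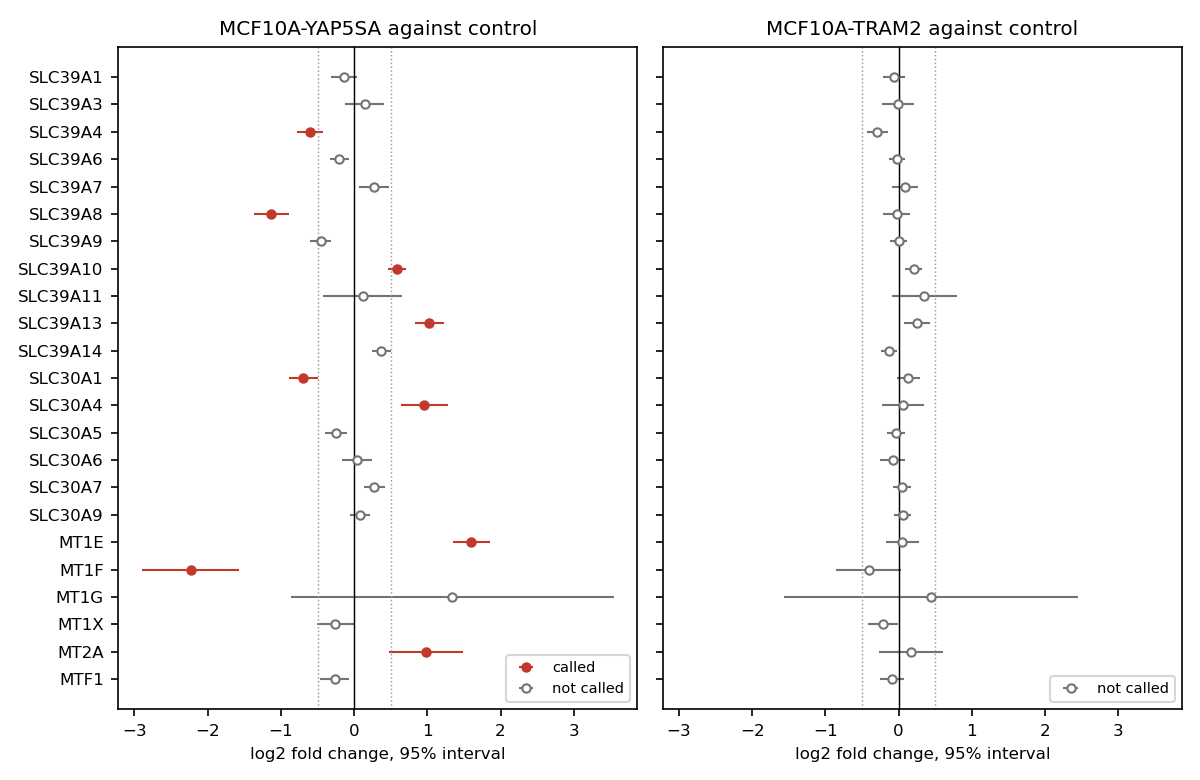
The log2 fold change and 95% interval of the 23 tested members in MCF10A-YAP5SA against control (left) and MCF10A-TRAM2 against control (right), with filled points for members called and dotted lines at 0.5 in both directions. In the left panel 5 members lie to the right and 4 to the left as filled points, and in the right panel there is no filled point.

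Among the importers of the plasma membrane, SLC39A1 (ZIP1; chr1:153931575-153940660, reverse strand, GRCh37), a widely expressed zinc importer, had 61.9 and 56.8 CPM in MCF10A-YAP5SA, 66.8, 56.8, 61.6 and 63.1 CPM in MCF10A-TRAM2, and 61.2 and 68.9 CPM in control. The 3 groups overlapped. Its log2 fold change was -0.13 (95% interval -0.31 to 0.04) in MCF10A-YAP5SA against control (adjusted p = 0.211 by quasi-likelihood in edgeR) and -0.07 (-0.21 to 0.08) in MCF10A-TRAM2 against control (adjusted p = 0.75), so that a change of more than 0.31 in either direction lay outside the interval in both. One protein_coding transcript of 2038 bases held 90.3% of its TPM in MCF10A-YAP5SA and 91.5% in MCF10A-TRAM2, against 93.3% in control.

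SLC39A8 (ZIP8), which carries zinc, manganese and cadmium, had 15.0 and 17.3 CPM in MCF10A-YAP5SA, 37.5, 31.5, 37.5 and 33.0 CPM in MCF10A-TRAM2, and 33.6 and 37.4 CPM in control. Both MCF10A-YAP5SA samples lay below the 6 others, which overlapped. SLC39A8 fell by 1.13 on the log2 scale against control (standard error 0.11, adjusted p = 1.12e-06 by quasi-likelihood in edgeR) and by 1.11 against MCF10A-TRAM2 (adjusted p = 4.86e-07). Its 3152-base coding transcript SLC39A8-201 held 77.0% of its counts in MCF10A-YAP5SA and 81.0% in MCF10A-TRAM2, against 81.4% in control, while a 251-base transcript typed lncRNA held most of the TPM of the gene in all groups on 2.99% to 4.50% of the counts. The TPM of this gene therefore rests on few reads.

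SLC39A10 (ZIP10), another plasma membrane importer, had 63.6 and 66.4 CPM in MCF10A-YAP5SA, 50.2, 49.9, 49.5 and 50.3 CPM in MCF10A-TRAM2, and 43.6 and 43.0 CPM in control. The 3 groups did not overlap, with MCF10A-TRAM2 between the others. The log2 fold change was 0.59 in MCF10A-YAP5SA against control (standard error 0.06, adjusted p = 1.6e-06 by quasi-likelihood in edgeR) and 0.21 in MCF10A-TRAM2 against control (adjusted p = 0.126), and MCF10A-YAP5SA against MCF10A-TRAM2 gave 0.38, below the fold limit (adjusted p = 2.57e-05). SLC39A10-201, a protein_coding transcript of 5222 bases, stood at 3.75 and 3.98 TPM in MCF10A-YAP5SA, 2.77 to 3.13 TPM in MCF10A-TRAM2, and 2.595 and 2.68 TPM in control.

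SLC39A14 (ZIP14), which carries zinc, iron and manganese, had 210 and 207 CPM in MCF10A-YAP5SA, 153, 155, 144 and 136 CPM in MCF10A-TRAM2, and 159 and 163 CPM in control. The MCF10A-YAP5SA samples were highest and the groups did not overlap. The log2 fold change was 0.37 in MCF10A-YAP5SA against control, below the fold limit (adjusted p = 1.6e-04 by quasi-likelihood in edgeR), and 0.50 in MCF10A-YAP5SA against MCF10A-TRAM2 (adjusted p = 1.8e-06), where it lay just inside the limit and was as low as 0.38 with other processing.

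SLC39A4 (ZIP4), the importer that takes up dietary zinc in the intestine, had 37.8 and 34.8 CPM in MCF10A-YAP5SA, 42.4, 42.3, 45.6 and 48.9 CPM in MCF10A-TRAM2, and 53.6 and 56.5 CPM in control. The groups did not overlap, and MCF10A-TRAM2 lay between the others. The gene fell by 0.60 on the log2 scale in MCF10A-YAP5SA against control (standard error 0.08, adjusted p = 2.84e-05 by quasi-likelihood in edgeR), and its log2 fold change was -0.29 in MCF10A-TRAM2 against control (adjusted p = 0.102) and -0.31 in MCF10A-YAP5SA against MCF10A-TRAM2 (adjusted p = 0.00325, below the fold limit). Its protein_coding transcripts held 0.129% of the counts in MCF10A-YAP5SA and 0.1% in MCF10A-TRAM2, against 0.104% in control. A 498-base transcript typed lncRNA, SLC39A4-206, held 80.3% in MCF10A-YAP5SA and 71.9% in MCF10A-TRAM2, against 78.2% in control, so the called change rests almost wholly on counts that were assigned to transcripts typed lncRNA. The gene had too few counts to be tested when protein_coding transcripts alone were summed.

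Of the other importers placed at the plasma membrane, SLC39A6 (ZIP6, also known as LIV-1, an oestrogen-regulated gene in breast cancer cells) had 102 and 98.0 CPM in MCF10A-YAP5SA, 108 to 121 CPM in MCF10A-TRAM2, and 117 and 113 CPM in control, a log2 fold change of -0.21 against control (adjusted p = 0.0115 by quasi-likelihood in edgeR, below the fold limit). SLC39A3 stood at 14.6 and 15.0 CPM in MCF10A-YAP5SA, 11.4 to 14.5 CPM in MCF10A-TRAM2, and 13.6 and 13.3 CPM in control, and did not pass the test (log2 fold change 0.14). SLC39A2, SLC39A5 and SLC39A12 were not tested, with 1, 0 and 0 counts over the MCF10A-YAP5SA samples, 3, 2 and 0 over MCF10A-TRAM2, and 2, 0 and 0 over control. A count of 0 allows up to 3 counts, which is 0.24 CPM in the shallowest MCF10A-YAP5SA sample and 0.162 CPM in control 2, for counting error only.

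Of the 4 importers of internal membranes, 1 was called in MCF10A-YAP5SA against control, where 29.4% of all genes tested were called. SLC39A13 (ZIP13), which releases zinc from vesicles of the early secretory pathway and is mutated in a form of Ehlers-Danlos syndrome, had 54.1 and 55.4 CPM in MCF10A-YAP5SA, 29.5, 36.4, 30.9 and 30.6 CPM in MCF10A-TRAM2, and 26.1 and 27.5 CPM in control. Both MCF10A-YAP5SA samples were the highest and both controls the lowest. SLC39A13 was higher by a log2 fold change of 1.03 against control (standard error 0.09, adjusted p = 3.23e-07 by quasi-likelihood in edgeR) and of 0.78 against MCF10A-TRAM2 (adjusted p = 1.02e-06), and MCF10A-TRAM2 against control gave 0.25 (adjusted p = 0.235).

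SLC39A9 (ZIP9), found at the Golgi apparatus and the plasma membrane, had 49.2 and 50.01 CPM in MCF10A-YAP5SA, 66.8, 67.9, 65.5 and 73.0 CPM in MCF10A-TRAM2, and 68.0 and 68.3 CPM in control. Both MCF10A-YAP5SA samples lay below all others. With a log2 fold change of -0.46 (adjusted p = 4.44e-05 by quasi-likelihood in edgeR) it lay just short of the fold limit. SLC39A7 (ZIP7), which releases zinc from the endoplasmic reticulum, had 104 and 101 CPM in MCF10A-YAP5SA, 78.8 to 101 CPM in MCF10A-TRAM2, and 83.8 and 85.3 CPM in control, a log2 fold change of 0.27 (adjusted p = 0.0315, below the fold limit). SLC39A11 stood between 3.33 and 5.37 CPM in all samples and did not pass the test in any comparison.

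Among the exporters, SLC30A1 (ZnT1; chr1:211744910-211752503, reverse strand, GRCh37) is the main zinc exporter of the plasma membrane and the SLC30A gene known to be induced by zinc through MTF1. It had 35.7 and 35.5 CPM in MCF10A-YAP5SA, 67.3, 69.3, 57.9 and 58.2 CPM in MCF10A-TRAM2, and 57.5 CPM in both controls. The MCF10A-YAP5SA samples lay below all others, and the MCF10A-TRAM2 samples lay above control. SLC30A1 fell by 0.69 on the log2 scale against control (standard error 0.09, adjusted p = 2.08e-05 by quasi-likelihood in edgeR) and by 0.83 against MCF10A-TRAM2 (adjusted p = 1.08e-06), while MCF10A-TRAM2 against control gave 0.13 (adjusted p = 0.483). The gene has 1 annotated transcript in the files, so no choice among transcripts enters its value.

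SLC30A4 (ZnT4), which loads zinc into endosomes and lysosomes and is expressed in mammary epithelium, had 13.5 CPM in both MCF10A-YAP5SA samples, 7.45, 8.35, 6.84 and 6.37 CPM in MCF10A-TRAM2, and 7.55 and 6.30 CPM in control. The MCF10A-YAP5SA samples lay above the others, which overlapped. Its level was higher by a log2 fold change of 0.96 against control (standard error 0.15, adjusted p = 9.04e-05 by quasi-likelihood in edgeR) and of 0.90 against MCF10A-TRAM2 (adjusted p = 4.21e-05). Its coding transcript SLC30A4-201 stood at 0.726 and 0.735 TPM in MCF10A-YAP5SA, 0.372 to 0.472 TPM in MCF10A-TRAM2, and 0.444 and 0.350 TPM in control, which is a low level per length.

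SLC30A5, SLC30A6 and SLC30A7 encode transporters that load zinc into the early secretory pathway, SLC30A5 and SLC30A6 as a heterodimer. None of the 3 was called in any comparison, where 29.4% of all genes were called in MCF10A-YAP5SA against control. SLC30A5 had 36.1 and 36.8 CPM in MCF10A-YAP5SA and 43.3 and 43.4 CPM in control (log2 fold change -0.25, adjusted p = 0.00888 by quasi-likelihood in edgeR), SLC30A7 had 58.4 and 60.9 CPM in MCF10A-YAP5SA and 50.3 and 48.3 CPM in control (0.27, adjusted p = 0.00339), and SLC30A6 stood at 21.8 and 23.5 CPM in MCF10A-YAP5SA and 21.9 and 22.0 CPM in control (0.04, adjusted p = 0.746). SLC30A9, linked to zinc export from mitochondria, stood at 94.8 and 94.2 CPM in MCF10A-YAP5SA, 85.2 to 97.5 CPM in MCF10A-TRAM2, and 88.1 and 91.3 CPM in control (0.08, adjusted p = 0.36). The exporters not tested were SLC30A2, which loads milk vesicles with zinc in the lactating mammary gland, SLC30A3 of synaptic vesicles, SLC30A8 of insulin granules, and SLC30A10, a manganese exporter. SLC30A2 had 7 counts over MCF10A-YAP5SA, 8 over MCF10A-TRAM2 and 13 over control, SLC30A3 had 7, 6 and 4 in the same order, SLC30A8 had 1, 2 and 1, and SLC30A10 had 0, 0 and 1. At that depth the ratio of MCF10A-YAP5SA to control was 0.877 for SLC30A2 (95% counting interval 0.296 to 2.37) and 2.85 for SLC30A3 (0.725 to 13.3), and no difference was detectable.

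The metallothioneins together stood at 1260 and 1267 CPM in MCF10A-YAP5SA, 513, 793, 695 and 710 CPM in MCF10A-TRAM2, and 625 and 601 CPM in control. Both MCF10A-YAP5SA samples lay above every other sample, and MCF10A-TRAM2 spread to both sides of control. The group means were 1264 ± 4.95 CPM in MCF10A-YAP5SA (SD, n = 2), 678 ± 118 CPM in MCF10A-TRAM2 (SD, n = 4) and 613 ± 17.0 CPM in control (SD, n = 2), ratios to control of 2.06 and 1.11. This sum over the 9 genes does not depend on how shared reads were divided among them, and it was not tested. Per length, MT2A and MT1E stood first and second of the 34 members in every group by deposited TPM, at 2951 ± 55.8 and 809 ± 54.0 TPM in MCF10A-YAP5SA and 1523 ± 62.5 and 266 ± 23.7 TPM in control (SD, n = 2 each). The 332-base transcript MT1E-203 held 91.2% of the TPM of MT1E in MCF10A-YAP5SA and 88.3% in MCF10A-TRAM2, against 90.6% in control. In MCF10A-TRAM2 and control the rank of MT1E therefore depends on counts assigned to that short transcript. In MCF10A-YAP5SA the transcript MT1E-201 alone (64.2 and 72.1 TPM) lay above SLC39A4, the member next in rank (58.5 and 53.2 TPM). The TPM of SLC39A4 itself lay mostly on the 498-base transcript SLC39A4-206 in all groups.

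MT2A, the metallothionein with the most counts, had 1025 and 1042 CPM in MCF10A-YAP5SA, 438, 695, 604 and 614 CPM in MCF10A-TRAM2, and 533 and 514 CPM in control. The MCF10A-YAP5SA samples were highest, while library A of MCF10A-TRAM2 lay below control and its other 3 libraries above. MT2A was higher by a log2 fold change of 0.98 against control (standard error 0.20, 95% interval 0.48 to 1.48, adjusted p = 0.0088 by quasi-likelihood in edgeR) and of 0.81 against MCF10A-TRAM2 (adjusted p = 0.00872). It rested on the transcript MT2A-201, which held 98.3% of its TPM in MCF10A-YAP5SA and 97.8% in MCF10A-TRAM2, against 98.3% in control. Among libraries A and B of each group alone, the log2 fold change was 1.00 against control (adjusted p = 0.0409) and 0.86 against MCF10A-TRAM2, where the call was lost (adjusted p = 0.0602).

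MT1E had 219 and 210 CPM in MCF10A-YAP5SA, 59.9, 79.5, 74.0 and 79.1 CPM in MCF10A-TRAM2, and 72.7 and 68.7 CPM in control. MCF10A-YAP5SA stood apart and the 2 other groups overlapped. MT1E was higher by a log2 fold change of 1.60 against control (standard error 0.11, a fold of 3.03, adjusted p = 2.5e-06 by quasi-likelihood in edgeR) and of 1.55 against MCF10A-TRAM2 (adjusted p = 7.3e-07). Its share of all metallothionein counts was 17.4% and 16.6% in MCF10A-YAP5SA, 10.0% to 11.7% in MCF10A-TRAM2, and 11.6% and 11.4% in control, while that of MT2A was 81.3% and 82.3% in MCF10A-YAP5SA, 85.4% to 87.7% in MCF10A-TRAM2, and 85.2% and 85.4% in control. Of its transcripts, MT1E-201 (704 bases) stood at 64.2 and 72.1 TPM in MCF10A-YAP5SA and 23.7 and 25.4 TPM in control, and MT1E-203 (332 bases, with an annotated coding sequence of 117 bases) at 780 and 695 TPM in MCF10A-YAP5SA and 258 and 224 TPM in control. For each transcript both MCF10A-YAP5SA samples lay above both controls.

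MT1F had 0.925 and 0.697 CPM in MCF10A-YAP5SA, 2.16, 2.97, 3.09 and 3.28 CPM in MCF10A-TRAM2, and 3.52 and 4.15 CPM in control. The groups did not overlap. Its level was the lowest of the called members, with 20 counts over MCF10A-YAP5SA, 175 over MCF10A-TRAM2 and 154 over control. MT1F fell by 2.23 on the log2 scale against control (standard error 0.31, adjusted p = 3.17e-05 by quasi-likelihood in edgeR), and the counts per library total stood in a ratio of 0.212 (counting interval at 95%, 0.126 to 0.338). Against MCF10A-TRAM2 it fell by 1.83 (adjusted p = 1.19e-04). With protein_coding transcripts alone the fall against control was smaller, a log2 fold change of -1.55 (adjusted p = 0.0174). Counts of MT1F were split between the coding transcript MT1F-201 and MT1F-202, a retained intron form of 1573 bases, with 77.4% on MT1F-201 in MCF10A-YAP5SA and 45.9% in MCF10A-TRAM2, against 45.0% in control.

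MT1X had 13.5 and 11.2 CPM in MCF10A-YAP5SA, 12.96, 12.6, 12.7 and 12.6 CPM in MCF10A-TRAM2, and 15.6 and 13.8 CPM in control. MCF10A-YAP5SA and MCF10A-TRAM2 overlapped and both lay below control. Its log2 fold change was -0.26 in MCF10A-YAP5SA against control (adjusted p = 0.0895 by quasi-likelihood in edgeR) and -0.21 in MCF10A-TRAM2 against control (adjusted p = 0.386). The 2 main transcripts of MCF10A-YAP5SA lay on opposite sides of control. MT1X-201, the coding transcript of 404 bases, stood at 8.02 and 7.01 CPM in MCF10A-YAP5SA, 9.16 to 10.2 CPM in MCF10A-TRAM2, and 13.3 and 11.9 CPM in control, whereas MT1X-203, of 549 bases and typed nonsense_mediated_decay (a class of mRNA that is degraded during translation), stood at 5.21 and 3.96 CPM in MCF10A-YAP5SA, 2.03 to 3.10 CPM in MCF10A-TRAM2, and 1.99 and 1.79 CPM in control. For neither transcript did the MCF10A-YAP5SA samples overlap with control. With protein_coding transcripts alone, MT1X fell by 0.75 on the log2 scale in MCF10A-YAP5SA against control (adjusted p = 0.00121 by quasi-likelihood in edgeR), so that its call depends on which transcripts are counted.

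**Figure D3:**
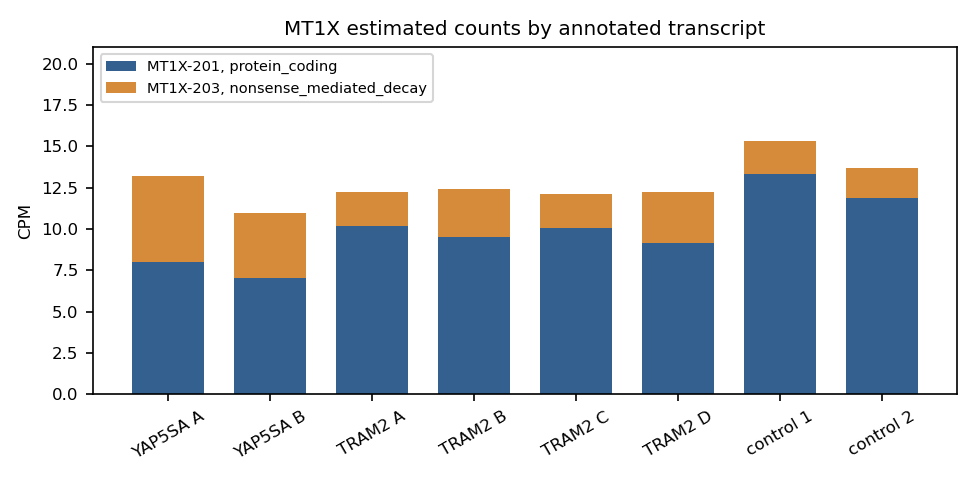
Estimated counts of the 2 main MT1X transcripts as stacked CPM in each sample, with the coding transcript MT1X-201 below and MT1X-203 (nonsense_mediated_decay) above it. MT1X-201 was lowest and MT1X-203 highest in the 2 MCF10A-YAP5SA samples (5.21 and 3.96 CPM, against 1.99 and 1.79 CPM in control).

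MT1G had 2.19 and 2.01 CPM in MCF10A-YAP5SA, 0, 2.21, 1.21 and 1.01 CPM in MCF10A-TRAM2, and 0.687 and 0.970 CPM in control. MCF10A-YAP5SA lay above control, and MCF10A-TRAM2 spread over both. The log2 fold change of MCF10A-YAP5SA against control was 1.34 with a wide interval (-0.86 to 3.55, adjusted p = 0.287 by quasi-likelihood in edgeR), and without MCF10A-TRAM2 library A, the library with no count, it was 1.34 with an adjusted p of 0.0171, so that this 1 library decides the call. MT1A, MT1B, MT1H and MT1M were not tested, with 1, 0, 4 and 0 counts over MCF10A-YAP5SA, 1, 0, 3 and 1 over MCF10A-TRAM2, and 0, 1, 2 and 0 over control.

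MTF1, the zinc-sensing transcription factor, had 25.3 and 24.1 CPM in MCF10A-YAP5SA, 30.5, 24.9, 28.0 and 28.7 CPM in MCF10A-TRAM2, and 29.6 and 29.9 CPM in control. Both MCF10A-YAP5SA samples lay below control, and they overlapped with library B of MCF10A-TRAM2. Its log2 fold change was -0.27 against control (95% interval -0.47 to -0.07, adjusted p = 0.0282 by quasi-likelihood in edgeR), below the fold limit, and -0.09 in MCF10A-TRAM2 against control (adjusted p = 0.703). Its coding transcript MTF1-201 held 91.9% of its counts in MCF10A-YAP5SA and 89.7% in MCF10A-TRAM2, against 91.8% in control.

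In MCF10A-TRAM2 against control, the 5 members of 23 with an unadjusted p under 0.05 were SLC39A4 (log2 fold change -0.29), SLC39A10 (0.21), SLC39A13 (0.25), SLC39A14 (-0.13) and MT1X (-0.21), and none passed after adjustment. Of all 15768 genes tested, about 1985 also had an unadjusted p under 0.05 by quasi-likelihood in edgeR. The members' median absolute log2 fold change was 0.09, against 0.10 for all genes. MT1G aside, the 95% intervals of the 22 other tested members lay between -0.85 and 0.80.

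Other genes that bear on metal handling were read from lists. Of 9 other zinc handling genes 6 were tested and 1 was lower in MCF10A-YAP5SA than in control, GPR39, a receptor activated by extracellular zinc (8.75 CPM in MCF10A-YAP5SA and 17.3 CPM in control on average, log2 fold change -0.98, adjusted p = 6.33e-05 by quasi-likelihood in edgeR). The 1 called is 16.7% of the genes of the list that were tested, below the 29.4% of all genes. The list's median log2 fold change was -0.04, against -0.01 for all genes. Its tested genes include METAP1 (log2 fold change 0.04) and PARK7 (0.03), which are not zinc transporters, stores or sensors. The share called and the median of the list depend on their inclusion. MT3 and MT4, the metallothioneins of brain and stratified epithelium, were at 0 in all samples.

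Of 14 copper and iron handling genes, 12 were tested, 5 were higher and 3 lower in MCF10A-YAP5SA than in control, and the median log2 fold change was 0.40. These are 66.7% of the genes tested, where 29.4% of all genes were called and the median of all genes was -0.01. The higher ones included ATP7B, a copper exporter (14.7 CPM in MCF10A-YAP5SA and 4.20 CPM in control on average, log2 fold change 1.81, adjusted p = 9.55e-07 by quasi-likelihood in edgeR), ATOX1, the chaperone that hands copper to it (0.81, adjusted p = 1.28e-05), and SLC31A2, a copper transporter (0.80). The others were CCS, the copper chaperone of superoxide dismutase (0.57), and FTL, the ferritin light chain (0.57). The lower ones were STEAP3, a ferrireductase (-0.94), FTH1, the ferritin heavy chain (-0.72), and TFRC, the transferrin receptor (-0.61). SLC11A2 is in both of these lists and was not called.

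Of 11 oxidative and heat stress genes, 2 were higher in MCF10A-YAP5SA than in control, SLC7A11, which imports cystine (log2 fold change 2.20), and TXNRD1, a thioredoxin reductase (0.92), and 2 were lower, the heat shock genes HSPA1B (-1.29) and HSPH1 (-0.65), with a median of -0.25. The 4 called are 36.4% of that list, near the 29.4% of all genes. Of 10 glucocorticoid response genes 9 were matched and tested, 3 were higher (DUSP1 at 1.32, SGK1 at 1.12 and the receptor NR3C1 at 0.60) and 5 lower (ZBTB16 at -1.26, FKBP5 at -1.12, KLF9 at -0.94, TSC22D3 at -0.91 and CEBPD at -0.82), with a median of -0.82. These 8 are 88.9% of the list, beside the same 29.4% of all genes. FKBP5, a co-chaperone of the glucocorticoid receptor, averaged 385 CPM in MCF10A-YAP5SA and 834 CPM in control. In MCF10A-TRAM2 against control edgeR called none of the genes of these 4 lists, where it called 0.0571% of all genes. The lists had 6, 12, 11 and 9 genes tested, in the order given. Of these, 0, 3, 5 and 2 had an unadjusted p under 0.05, as did about 1985 of all 15768 genes by the same quasi-likelihood test. The part of the listed genes in the levels of the members was not tested.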

How the data were processed

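RNA was measured by mRNA sequencing in 10 libraries. Per the labels and the study's methods, the authors trimmed reads with cutadapt and quantified transcripts with Salmon; the build, the annotation and tool versions are items not given in the sources used here. Deposited values used were estimated counts and TPM per transcript, the latter scaled by effective length. Estimated counts were summed per gene and rounded. Libraries were merged where a chi-square test of genes with whole counts found no difference (control A and C, p = 0.467; B and D, p = 0.503, though 0.0208 over the larger set of genes whole in that pair). The main test was edgeR 4.0.16 (quasi-likelihood, TMM, low-count filter) in R 4.3.3 on all 8 samples, with Benjamini-Hochberg adjustment over 15768 genes, tested on simulated data. DESeq2 1.42.0 and other settings were alternatives. The members, gene lists and tests were chosen with earlier results of these data known. Every member is named, with full values for those called and for SLC39A1, SLC30A1, MT2A and MTF1. Intervals on counts and floors of 3 counts cover counting error only.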

Additional observations from a re-analysis of the deposited data

How the results depend on the processing

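DESeq2, RLE normalization and the use of all 10 libraries unmerged changed no call of a tested member. With no fold threshold, 8 members were called higher and 8 lower in MCF10A-YAP5SA against control, and 7 higher and 7 lower in MCF10A-YAP5SA against MCF10A-TRAM2, where 48.7% and 51.2% of all genes were called. With libraries A and B only, 3 were called higher and 3 lower in MCF10A-YAP5SA against MCF10A-TRAM2 (13.7% and 13.1% of all genes), where MT2A was 0.86 (adjusted p = 0.0602 by quasi-likelihood in edgeR). In the fit of all 8 samples, 15.3% of all genes were called higher and 14.1% lower in MCF10A-YAP5SA against control. Against MCF10A-TRAM2 these shares were 14.9% and 14.6%. Leaving out each sample in turn gave 5 to 6 higher and 4 lower in MCF10A-YAP5SA against control, 0 in MCF10A-TRAM2 against control, and 4 to 5 higher and 3 lower in MCF10A-YAP5SA against MCF10A-TRAM2. SLC39A14 lost its call against MCF10A-TRAM2 without library C (0.49) or D (0.47) of MCF10A-TRAM2 or library A of MCF10A-YAP5SA (0.50), with no low-count filter (0.47), libraries A and B only (0.43, also with the replicate block), protein_coding transcripts only (0.48), effective length offsets (0.38) and, chosen after seeing the data, MCF10A-TRAM2 libraries A and B only (0.43). MT1G was called in MCF10A-YAP5SA against control without MCF10A-TRAM2 library A (adjusted p = 0.0171) and with only the groups compared (adjusted p = 0.00328). SLC39A9 passed the fold limit with no low-count filter (-0.51) and, against MCF10A-TRAM2, with protein_coding transcripts only (-0.53). In settings chosen after seeing the data, MCF10A-TRAM2 libraries A and B alone gave 5 higher and 4 lower in MCF10A-YAP5SA against control. C and D alone gave 6 higher and 4 lower, to be read beside the shares of all genes in the fit of all samples. The cause of these differences was not tested. Low counts limit MT1F, MT1G and the 11 members not tested.

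Library letters A and B occur in every group but are not stated to mark a shared culture, and same-letter samples deviated together with correlations of 0.0166, -0.0343 and 0.0275 over the 3 pairs of groups. With the letter as a replicate block among libraries A and B, 4 members were called higher and 4 lower in MCF10A-YAP5SA against control (15.4% and 13.6% of all genes). None was called in MCF10A-TRAM2 against control (0.225% of all genes). In MCF10A-YAP5SA against MCF10A-TRAM2, 3 were called higher and 3 lower (13.6% and 13.1% of all genes). MT2A was then 0.99 against control (adjusted p = 0.058 by quasi-likelihood in edgeR) and 0.89 against MCF10A-TRAM2 (adjusted p = 0.0757), and was called in neither.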
